A study of Sus scrofa with 6 samples.

Results

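Genes of uptake and digestion inside cells, CUBN, AMN, DAB2, CTSB, CTSL, CTSD, LGMN, LAMP1 and LAMP2, were followed by name in single cells of the piglet ileum, 9 of the 20648 genes counted. They were chosen for their known roles, with earlier results of these data known. Cells were barcodes with at least 1000 UMIs (unique molecular identifiers, each marking 1 captured transcript) and 500 genes, 76099 in all. Epithelial cells, 4054 of them, had at least 5 UMIs of EPCAM, KRT8 and VIL1 together and at most 1 UMI of PTPRC, the pan-leukocyte gene. Myeloid cells, the other phagocytic lineage, had at least 10 UMIs of LYZ, CST3 and AIF1 together and numbered 1691.

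The scRNA-seq data came from scraped ileal mucosa of male large white piglets that took maternal milk and no antibiotics or vaccines, with 1 library at each of days 0 (at birth), 1, 3, 7, 14 and 21. All groups shared tissue, sex and line, and differed in age. Time on maternal milk differed with age, and the methods do not say whether piglets of day 0 had suckled. Cells of 5 piglets per age went onto 1 chip channel per age, so animals could not be told apart. Age, time on milk and library cannot be told apart either. The series description names the cecum where the sample labels name the ileum, and FABP6, the ileal bile acid binding protein, reached 28.0 UMIs per 10000 UMIs in epithelial cells on day 1 and 107.7 on day 7.

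In many newborn mammals the enterocytes of the distal small intestine take up milk protein whole and break it down in a large lysosomal vacuole, a task that ends as the cells are replaced by ones of the adult kind. Cubilin (CUBN) is a large surface receptor without a membrane anchor of its own, amnionless (AMN) anchors it and carries it to the apical membrane, and disabled-2 (DAB2) is the adaptor that links such receptors to clathrin. Cathepsins B and L (CTSB, CTSL) and legumain (LGMN) are cysteine proteases, cathepsin D (CTSD) is an aspartic protease, and all of them work in the lysosome. LAMP1 and LAMP2 are the abundant glycoproteins of its membrane. The same proteases serve macrophages.

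By the RefSeq annotation of Sscrofa11.1, the build of the files, CUBN lies at chr10:43102931-43414692, CTSL at chr10:27668523-27674705, CTSB at chr14:15014139-15035081, CTSD at chr2:1188548-1197642, LGMN at chr7:114176217-114210096, DAB2 at chr16:24590638-24776937, LAMP1 at chr11:78600818-78617587 and LAMP2 at chrX:98586718-98623939. AMN lies on a sequence not placed on a chromosome. All 9 are protein-coding genes. Counts came from the 3′ ends of transcripts, so a level is compared here within a gene and not between genes.

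The libraries held 77391932 to 100348769 UMIs each, and 10836 to 15956 cells passed. Epithelial cells numbered 2741, 1002, 90, 192, 28 and 1 on days 0, 1, 3, 7, 14 and 21, and myeloid cells 411, 936, 205, 32, 100 and 7. On day 3 only 1 of the 90 epithelial cells fell in the absorptive range used below, which takes cells left over by the other marker sums. On day 21 no level in epithelial cells could be read. Cells that met both rules were few, 104, 80, 2 and 6 on days 0, 1, 3 and 7, but were deep, with a median of 41016 UMIs on day 0 and 42681.5 on day 1. They held 58.2% of the UMIs of the myeloid class on day 0 and 34.7% on day 1, so ratios of the whole myeloid class are given with and without them. Near the bounds lay 258 cells with 4 and 184 with 5 of the epithelial marker UMIs, and 276 with 8 or 9 and 160 with 10 or 11 of the myeloid ones. Pairs of libraries shared 31 to 68 cell barcodes, where random draws from the barcode list would share 18.1 to 32.4, and each of the 15 pairs shared more than its own expected number.

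With 1 library per age no test between ages was possible. A level is the sum of a gene's UMIs over the cells of a class per 10000 UMIs of those cells, with an exact Poisson 95% interval in brackets. A ratio of levels is given as log2 with an exact conditional binomial 95% interval. Both cover counting error only and not the spread between cells or between piglets. A gene was counted as changed past the fold where its level differed at least 2-fold, among genes with at least 50 UMIs in both groups together, and groups under 50 cells get no ratio.

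Epithelial DAB2, LGMN, CTSB, CTSD and LAMP2 were at least 2-fold higher on day 1 than at birth, 5 of the 9 genes, where 5.74% of 12602 genes were. The other 4 were higher by less. The median log2 ratio of the 9 was 1.00, beside 0.06 over all genes. None of the 9 was 2-fold lower, as 4.99% of genes were. All 9 counting intervals lay above 0.

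Among the uptake genes, epithelial CUBN stood at 0.0651 (0.0575 to 0.0735), 0.121 (0.106 to 0.137), 0, 1.11 (0.936 to 1.31) and 1.57 (1.04 to 2.27) UMIs per 10000 on days 0, 1, 3, 7 and 14, the last from 28 cells. The receptor thus began low and had its high values on days 7 and 14, whose intervals do not overlap those of days 0 and 1. The 0 on day 3 allows up to 0.0367 by a floor of 3 counts, below the day 0 value. The log2 ratio of CUBN was 0.89 (0.63 to 1.15) from day 0 to day 1 and 4.09 (3.79 to 4.39) from day 0 to day 7.

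AMN stood at 2.36, 2.89, 0.135, 2.67 and 3.92 on the same 5 days. It moved least of the 9 genes on day 1, with a log2 ratio of 0.29 (0.24 to 0.34), and on day 7 the ratio to birth was 0.18 (0.02 to 0.33). CUBN and its anchor therefore did not keep a fixed ratio of counts across the days.

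DAB2 stood at 5.04 (4.97 to 5.11), 10.1 (9.96 to 10.2), 0.526 (0.381 to 0.708), 5.52 (5.12 to 5.95) and 0.168 (0.0346 to 0.491) on days 0, 1, 3, 7 and 14. By point values in the whole class, the adaptor was at its peak on day 1 and at its lowest on day 14, when CUBN and AMN were at their highest. The day 14 intervals, from 28 cells, overlap those of day 3 for DAB2 and of day 7 for CUBN. In the FABP6-low absorptive cells described below, DAB2 was at 16.0 on day 1 and 17.2 on day 7. The day 1 ratio of 1.00 (0.98 to 1.03) lay on the 2-fold bound and fell below it, to 0.96, with TMM factors and to 0.87 without enteroendocrine and goblet cells. Summed over the receptor, its anchor and the adaptor, the log2 ratio was 0.81 (0.79 to 0.84) on day 1 and 0.32 (0.23 to 0.40) on day 7. The day 7 value came to 0.0083 with TMM factors and to −0.0073 without enteroendocrine and goblet cells.

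**Figure D1:**
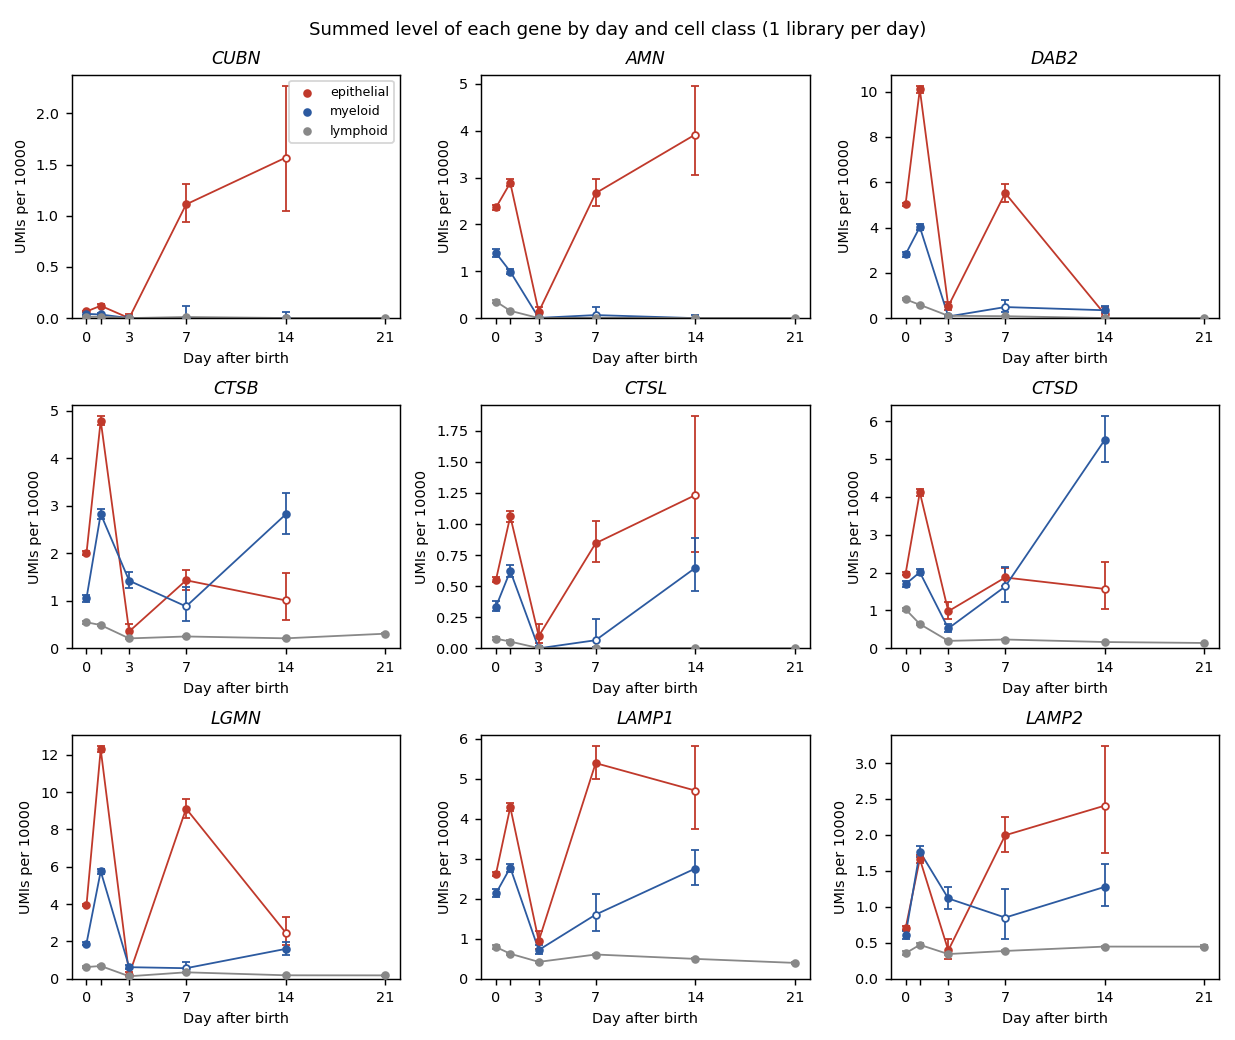
Level of each gene (UMIs per 10000 UMIs, vertical axis) by day after birth (horizontal axis) in epithelial, myeloid and lymphoid cells, with exact Poisson 95% intervals; open points are groups under 50 cells, and epithelial and myeloid cells of day 21 are not drawn. Epithelial DAB2, CTSB, CTSD and LGMN peak on day 1 and are low on day 3, while CUBN is high from day 7.

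Of the proteases, LGMN changed the most on day 1. On days 0, 1, 3, 7 and 14 it stood at 3.93, 12.3, 0.208, 9.12 and 2.46, with a log2 ratio of 1.65 (1.62 to 1.67) on day 1 and of 1.21 (1.13 to 1.30) on day 7, both against birth. By its ratio on day 1 it was 207th of the 12602 genes. Legumain also processes the cathepsins to their mature chains.

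CTSB stood at 1.999, 4.79, 0.355, 1.43 and 1.01 on those days and CTSD at 1.97, 4.12, 0.978, 1.87 and 1.57. In the whole class both were thus raised on day 1 alone, with log2 ratios of 1.26 (1.22 to 1.30) and 1.06 (1.02 to 1.11), and by day 7 CTSB was below birth (−0.48, −0.70 to −0.27) and CTSD within counting error of it (−0.08, −0.27 to 0.11). Within the absorptive ranges described below CTSB was not below birth on day 7. CTSL stood at 0.553, 1.06, 0.0978, 0.845 and 1.23, so it was not back at its birth level on day 7, with a ratio of 0.61 (0.32 to 0.89).

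The summed proteases gave log2 ratios of 1.40 (1.38 to 1.42) on day 1 and 0.65 (0.58 to 0.72) on day 7. Leaving out the cells that met both rules gave 1.35 on day 1.

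In the lysosomal membrane, LAMP1 stood at 2.63, 4.29, 0.942, 5.39 and 4.70 on days 0, 1, 3, 7 and 14. LAMP2 stood at 0.699, 1.67, 0.391, 1.99 and 2.41. Both levels were higher on day 7 than on day 1, but with TMM factors the log2 ratio of their sum to birth was 0.80 on day 1 and 0.84 on day 7. Their log2 ratios on day 7 were 1.04 (0.92 to 1.15) and 1.51 (1.32 to 1.70), and their sum gave 1.15 (1.05 to 1.25).

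On day 7 CUBN, LGMN, LAMP1 and LAMP2 were at least 2-fold higher than at birth, 4 of the 9, beside 16.0% of 12163 genes, and none was lower, beside 13.6%. The median log2 ratio of the 9 was 0.61 and that of all genes 0.18. TMM scaling lowered every log2 ratio of this pair of days by 0.31, to 0.90 for LGMN and 0.73 for LAMP1, so that those 2 no longer passed 2-fold, and CUBN and LAMP2 did. Without enteroendocrine and goblet cells LGMN came to 0.87 and LAMP1 to 0.81.

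On day 3, 7 of the 9 genes were at least 2-fold lower in epithelial cells than at birth, beside 12.9% of 12143 genes, a share in which a gene at 0 counts as lower, and none was higher, beside 15.1%. CUBN had no UMI, and its floor of 0.0367 does not show it to be 2-fold below birth. LAMP2 was lower by less (log2 −0.84, −1.39 to −0.34). AMN was lower by 4.13 on the log2 scale and LGMN by 4.24, CTSD by 1.01 only. The 90 epithelial cells of that day comprised 32 enteroendocrine, 23 goblet, 22 crypt, 1 absorptive and 12 other cells, by the marker sums given next. On day 0 AMN was at 0.884 to 1.00 and LGMN at 0.588 to 1.38 in the kinds other than absorptive cells, under the 3.74 and 6.71 of absorptive cells. Within kinds the day 3 levels of AMN were lower as well, from 0.989 to 0.163 in enteroendocrine, from 0.986 to 0.0366 in goblet and from 1.00 to 0.238 in crypt cells, and their counting intervals did not overlap. LGMN went from 1.36 to 0.163, from 1.38 to 0.0366 and from 0.588 to 0.238 in the same kinds, but in the other epithelial cells its 0.790 on day 0 and 0.723 on day 3 had overlapping intervals. CTSB in enteroendocrine cells (0.901 and 0.979) and CTSD in goblet cells (1.19 and 0.953) had overlapping intervals on the 2 days. AMN in lymphoid cells, which should lack it, was at 0.354 on day 0 and 0.00137 on day 3. In barcodes of at most 100 UMIs, which hold free RNA, it was at 1.32 and 0.00519. LGMN was at 0.617 and 0.122 in lymphoid cells and at 1.88 and 0.135 in those barcodes. On day 0 the values in those barcodes were above those of both genes in the kinds other than absorptive cells. The part of these differences in the lower levels was not tested.

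Epithelial cells were therefore split by sums of marker UMIs that hold none of the 9 genes, taken in this order. Enteroendocrine cells had at least 5 UMIs of CHGA, CHGB, SCG2 and SCG5, goblet cells at least 5 of MUC2, FCGBP, CLCA1 and SPDEF, crypt cells at least 5 of OLFM4, and absorptive cells at least 10 of APOA1, APOA4, FABP2, RBP2, ANPEP and MEP1A. Absorptive cells were split at 10 UMIs of FABP6. These are ranges of counts and not cell types, with 30 cells just under and 29 just over the FABP6 bound. FABP6-low absorptive cells numbered 761, 479, 23 and 2 on days 0, 1, 7 and 14, and FABP6-high cells 316, 108, 56 and 24. The FABP6-high share of absorptive cells was thus 29.3%, 18.4%, 70.9% and 92.3%.

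LGMN was highest in FABP6-low absorptive cells on days 0, 1 and 7, at 8.80 (8.64 to 8.96), 19.99 (19.7 to 20.3) and 36.6 (33.8 to 39.5), the last from 23 cells. In FABP6-high cells it stood at 2.91, 9.43 and 8.61, and at 2.67 on day 14. Crypt cells held 0.588 on day 0 and 0.499 on day 1, enteroendocrine cells 1.36 and 2.64, and goblet cells 1.38 and 6.53. The legumain message was therefore highest in absorptive cells low in FABP6, and in those high in FABP6 it was lower on day 14 than on day 1.

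DAB2 followed the same order, at 10.4, 16.0 and 17.2 in FABP6-low cells of days 0, 1 and 7, against 4.33, 7.92 and 6.33 in FABP6-high cells. In the 24 FABP6-high cells of day 14 it was at 0.182 (0.0375 to 0.532). AMN stood at 4.30, 4.39 and 7.01 in FABP6-low cells and at 2.72, 2.74, 3.67 and 4.12 in FABP6-high cells up to day 14. In those 24 cells the anchor was thus kept where the adaptor, with 3 UMIs, was close to absent.

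CTSB differed most between the ranges on day 0, at 4.70 in FABP6-low and 0.825 in FABP6-high cells, a log2 ratio of 2.51 (2.39 to 2.63). On day 1 the values were 8.35 and 2.52, and on day 7 they were 5.16 (4.16 to 6.33) and 1.39. From birth to day 7 CTSB was thus higher within FABP6-high cells, with a log2 ratio of 0.75 (0.39 to 1.10), and within counting error in FABP6-low cells, while it was lower in the whole class. CTSD stood at 3.38 and 1.66 on day 0, at 6.26 and 3.67 on day 1 and at 3.93 and 1.98 on day 7. CTSL alone of the proteases had no such split, at 0.830 and 0.842 on day 0 and 1.43 and 1.45 on day 1.

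On day 0, 4 of the 9 genes were at least 2-fold higher in FABP6-low than in FABP6-high absorptive cells (DAB2, CTSB, CTSD and LGMN), beside 3.37% of 10167 genes, and none was lower, beside 1.57%. On day 1 it was 3 of the 9 (DAB2, CTSB and LGMN), beside 3.4% of 9416 genes, and again none was lower, beside 3.43%. Counting intervals lay above 0 for 7 of the 9 genes on both days. The exceptions were CTSL, whose intervals spanned 0, and CUBN, which was lower in FABP6-low cells on day 0 (log2 −0.47, −0.86 to −0.07) and within counting error on day 1 (0.26, −0.27 to 0.83). Median depth was alike in the ranges, 16028 UMIs in the low and 16054 in the high cells on day 0, and 18675 and 18320.5 on day 1.

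CUBN ran the other way by day 7, at 0.617 (0.308 to 1.10) in the 23 FABP6-low cells and 2.28 (1.90 to 2.71) in the 56 FABP6-high ones. In the FABP6-high cells it had stood at 0.133 on day 0 and 0.152 on day 1, so that its log2 ratio from birth to day 7 was 4.10 (3.71 to 4.50) within that range. On day 14 it was at 1.46 (0.932 to 2.17).

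**Figure D2:**
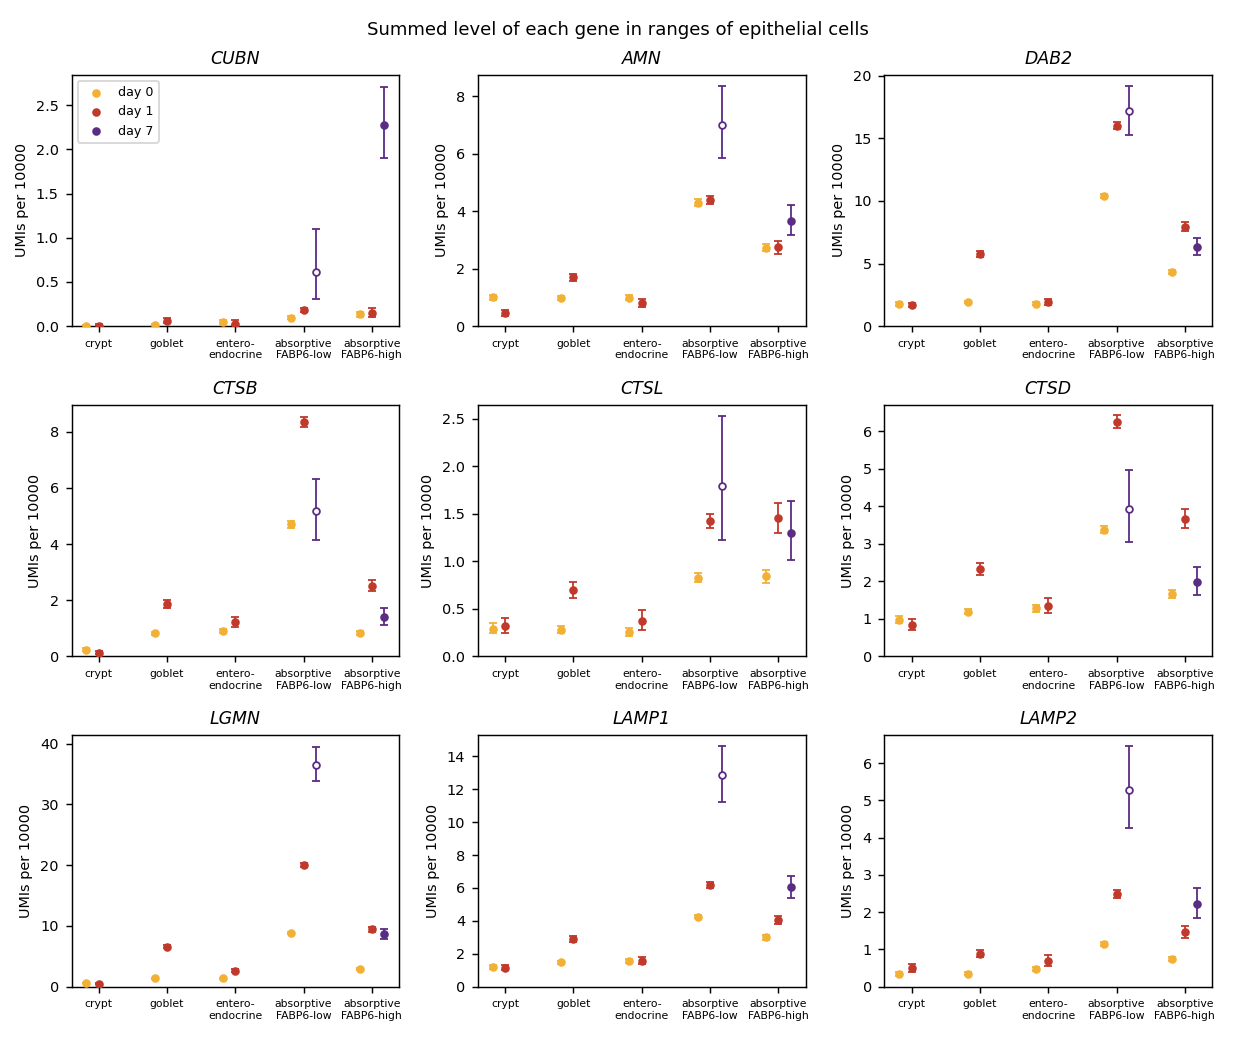
Level of each gene (UMIs per 10000 UMIs, vertical axis) in crypt, goblet, enteroendocrine and absorptive cells low or high in FABP6 on days 0, 1 and 7, with exact Poisson 95% intervals; open points are groups of 20 to 49 cells, and smaller ones are not drawn. FABP6-low absorptive cells have the highest DAB2, CTSB, CTSD and LGMN, and CUBN is highest in FABP6-high cells of day 7.

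Ordering the absorptive cells by FABP6 per 10000 of their own UMIs gave the same picture in steps. This order was chosen after the data had been seen. Median depth was not alike in the steps. It was 17765.5 UMIs in the third step and 7809.5 in the last on day 0, and 24048.5 and 8758 on day 1. On day 0 DAB2 stood at 12.3 in the 440 cells without FABP6, 8.02 in the 312 cells above 0 and up to 5, 4.48 in the 218 cells up to 50, 3.00 in the 77 cells up to 500 and 1.34 in the 30 cells above. LGMN stood at 11.2, 5.81, 2.98, 2.24 and 2.75 in the same steps and CTSB at 6.29, 2.67, 0.868, 0.701 and 0.955. DAB2 was lower at each step, while most of the difference in LGMN and CTSB lay between no FABP6 and 50.

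On day 1 the same 5 steps gave 17.0, 14.6, 8.36, 5.95 and 1.57 for DAB2, and 20.8, 18.9, 9.89, 6.37 and 2.11 for LGMN. At the top step, DAB2 (1.34 on day 0, 1.57 on day 1) and LGMN (2.75 and 2.11) no longer differed between the days beyond their counting intervals. At that step, from 30 and 28 cells, CTSD was at 2.02 (1.52 to 2.65) on day 0 and 3.82 (3.15 to 4.58) on day 1. CTSL was at 1.57 (1.12 to 2.12) and 0.736 (0.461 to 1.11), with intervals that nearly touch. CUBN on day 0 stood at 0.0987, 0.0804, 0.0928, 0.372 and 0.535, and on day 7, where a step held 6 to 36 cells, at 0.361, 0.885, 1.28, 2.64 and 3.02. DAB2 on day 7 stood at 14.7, 17.4, 13.4, 4.39 and 0.378. AMN stood at 8.29, 6.45, 3.58, 3.71 and 3.59 in the same steps of day 7, so it was kept at the top step where DAB2 had 2 UMIs.

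**Figure D3:**
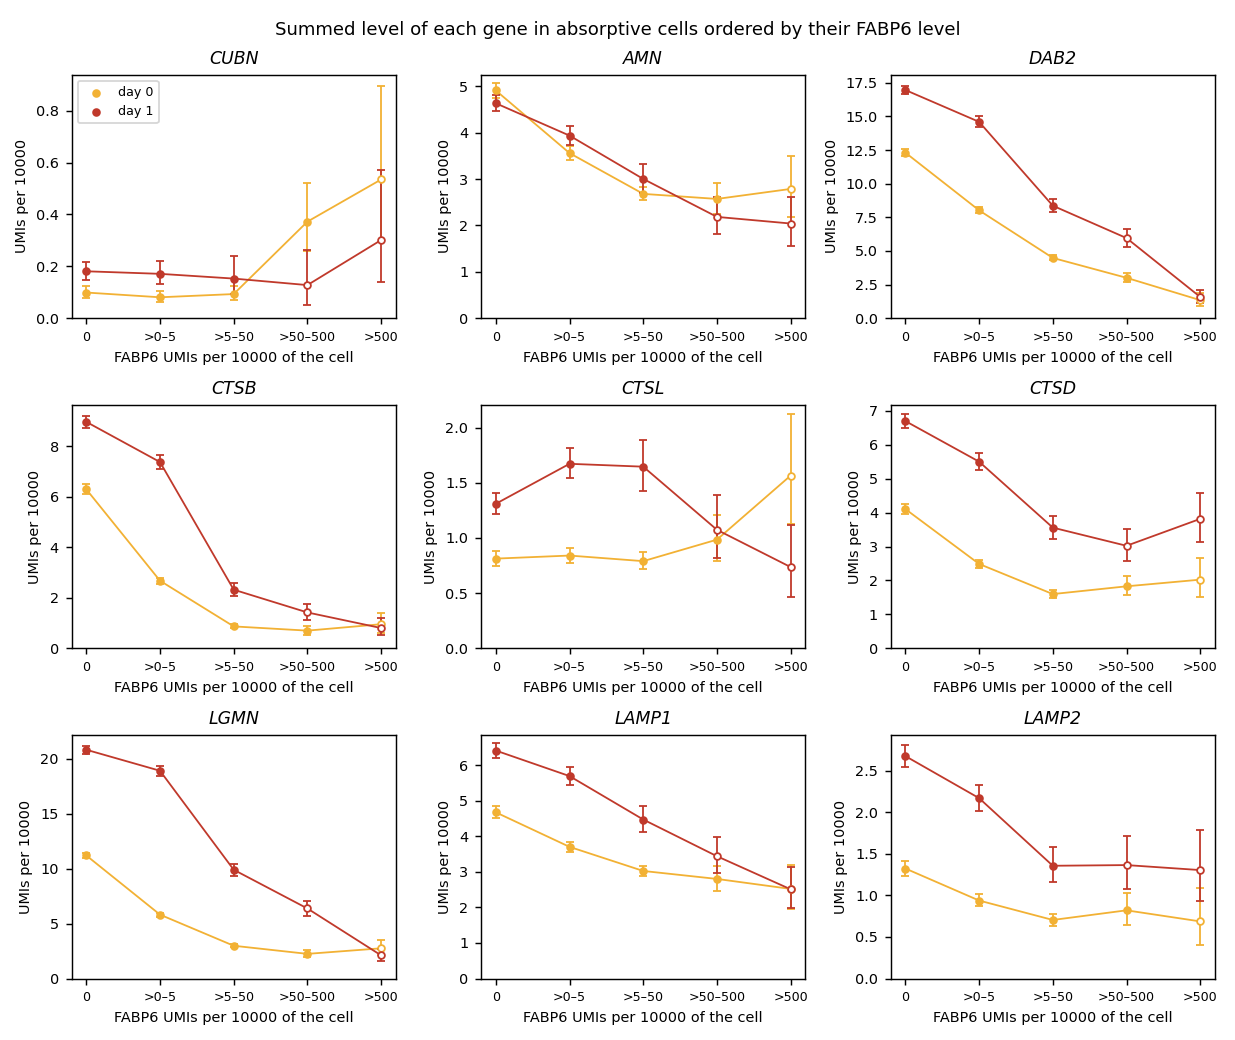
Level of each gene (UMIs per 10000 UMIs, vertical axis) in absorptive cells of days 0 and 1 in 5 steps of the FABP6 level of the cell (horizontal axis), with exact Poisson 95% intervals; open points are steps under 50 cells. DAB2, LGMN and CTSB are lower above 5 FABP6 UMIs per 10000 than without FABP6 on both days.

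Since the make-up of the epithelial class differed between days, the changes were also read within ranges. Absorptive cells were 39.3% of epithelial cells on day 0, 58.6% on day 1 and 41.1% on day 7. Epithelial cells of none of these kinds were 10.4% on day 0 and 51.0% on day 7, and the 98 of day 7 had a median of 2819 UMIs and a mean of 22.0% mitochondrial UMIs, beside 8.47% in absorptive cells of that day. Their part in the whole-class values of day 7 was not tested. Within FABP6-low cells the log2 ratio from day 0 to day 1 was 1.18 (1.15 to 1.22) for LGMN, 1.12 (1.02 to 1.21) for LAMP2, 0.89 (0.83 to 0.95) for CTSD, 0.83 (0.78 to 0.88) for CTSB and 0.62 (0.59 to 0.66) for DAB2. AMN had a ratio of 0.03 (−0.03 to 0.09), within counting error. In FABP6-low cells 2 of the 9 genes passed 2-fold, beside 7.71% of 10393 genes, and none was lower, beside 3.54%. The count within the range was thus smaller than in the whole class, and LAMP2 came to 0.99 with TMM factors.

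Within FABP6-high cells LGMN, CTSB and CTSD passed 2-fold from day 0 to day 1, 3 of the 9, beside 9.43% of 8990 genes, and none was lower, beside 2.55%. The log2 ratios were 1.70 (1.61 to 1.78), 1.61 (1.44 to 1.78) and 1.14 (1.01 to 1.27). LAMP2 was at 1.00 (0.80 to 1.20), just short of the bound, and AMN at 0.01 (−0.12 to 0.14). With TMM factors, which lowered these ratios by 0.24, CTSD came to 0.91. From day 0 to day 7 CUBN, LGMN, LAMP1 and LAMP2 passed, 4 of the 9, beside 15.4% of 8438 genes (none lower, beside 11.5%), at 4.10, 1.56, 1.01 and 1.59, and LAMP1 came to 0.65 with TMM factors.

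The other genes of the pathway were taken from lists by role. These lists and the ranges were set with earlier results of these data known. Of 29 further lysosomal hydrolases and their activators with enough counts, 17 were at least 2-fold higher in epithelial cells on day 1 than on day 0 and none was 2-fold lower, beside 5.74% and 4.99% of all genes. Their median log2 ratio was 1.12, beside 0.06 for all genes. The hydrolases with the highest epithelial levels were CTSZ, an exopeptidase (5.45 on day 0 and 10.0 on day 1), CTSH, an aminopeptidase (2.31 and 6.74), and PSAP, the precursor of the saposins (1.85 and 6.08). The last had a ratio of 1.72 (1.68 to 1.76), which was above that of LGMN.

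Of 22 uptake genes 1 passed 2-fold, a share near the 5.74% of all genes. It was LRPAP1, a chaperone of receptors of the LDL receptor family (log2 1.07, 0.91 to 1.23), and the median of the list was 0.59, beside 0.06 for all genes. The uptake genes of the highest level were MYO6, a motor of apical endocytosis (1.39 on day 0 and 2.73 on day 1), CLTC, the clathrin heavy chain (0.878 and 1.39), and RAB5A of early endosomes (1.04 and 1.24). LRP2, or megalin, the usual partner of cubilin, was at 0.0271 on day 0 and 0.0257 on day 1. The median of the uptake list was thus below the 1.12 of the hydrolases.

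None of 17 genes of the lysosomal membrane and its proton pump passed 2-fold on day 1, a count near the 5.74% of all genes, with a median of 0.46 beside 0.06. CD63 stood at 9.59 on day 0 and 10.5 on day 1, LAPTM4A at 1.78 and 2.76 and ATP6V0C, a pump subunit, at 3.70 and 5.09. LAMP2 therefore changed more than any of these 17, of which ATP6V0D1 had the highest ratio, 0.92 (0.82 to 1.02).

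None of 6 regulators passed 2-fold either, again near the share of all genes. TFEB, the factor known for switching on lysosomal genes, stood at 0.445 on day 0 and 0.493 on day 1, and PRDM1, known for holding the suckling state of the intestine, at 0.724 and 1.08. Of 2 cathepsin inhibitors with enough counts, CSTB, or stefin B, stood at 9.44 and 13.1, and CST6, cystatin M, at 0.425 and 0.207, which made it 2-fold lower on day 1, as 4.99% of all genes were. Within FABP6-high absorptive cells CST6 was within counting error of birth on day 1, at 0.172 and 0.152, and in FABP6-low cells it stood at 0.101 and 0.0364.

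**Figure D4:**
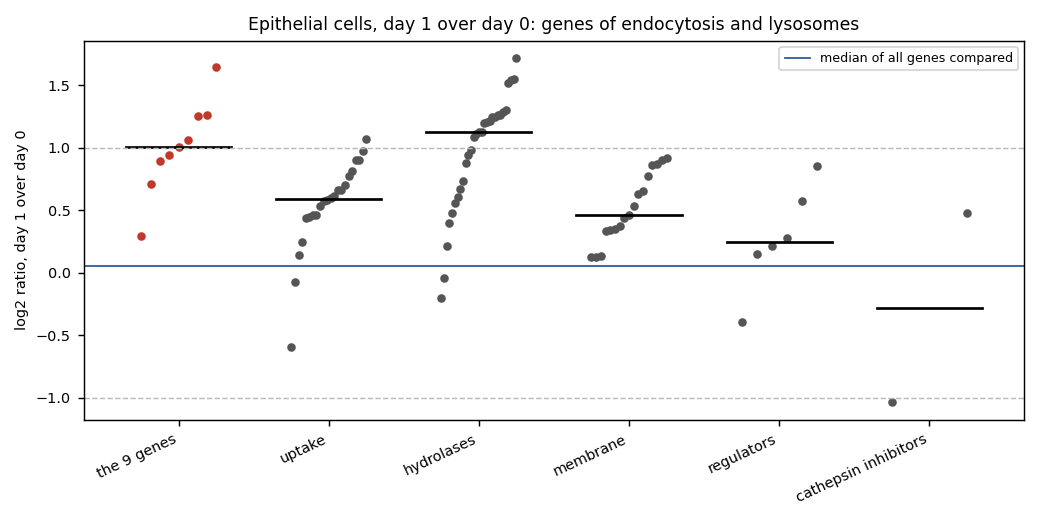
Log2 ratio of the epithelial level on day 1 over day 0 (vertical axis) for each of the 9 genes (red) and for the other genes of each list (grey, sorted within the list); black bars are list medians, the blue line is the median of all genes and dashed lines mark 2-fold. The hydrolases have a median of 1.12, and the membrane genes lie between 0.13 and 0.92.

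The lists also differed between the ranges of absorptive cells. On day 0, 16 of 28 hydrolases were at least 2-fold higher in FABP6-low than in FABP6-high cells and 1 was lower, with a median log2 ratio of 1.12 beside 0.02 for all genes. These compare with 3.37% and 1.57% of all genes. On day 1 it was 10 of 27, and 2 were lower, beside 3.4% and 3.43%. From day 0 to day 1, 20 of 26 hydrolases passed 2-fold within FABP6-high cells, with a median of 1.29 beside 0.20 for all genes, of which 9.43% passed. Within FABP6-low cells it was 5 of 29, with a median of 0.77 beside 0.16 for all genes, of which 7.71% passed.

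Genes whose profile was among the most like that of the summed proteases, over 36 profiles of a class or range on 1 day with at least 50 cells, were HEXA (r = 0.939), GGH (0.936), SLC7A7 (0.932) and SCARB2 (0.919), out of 13844 genes. HEXA and GGH encode lysosomal hydrolases, SCARB2 a protein of the lysosomal membrane and SLC7A7 a transporter of cationic amino acids. These 4 had their highest level in FABP6-low cells of day 1. Profiles share libraries, and cells that met both rules count in an epithelial range and in the myeloid class. The r is therefore a description across profiles (Pearson, of log2 levels with 0.1 added).

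By the same measure the genes most like CUBN were SLC10A2 (r = 0.938), SLC28A2 (0.914), PIK3C2G (0.911), SI (0.900) and FLVCR2 (0.898). SLC10A2 takes up bile acids in the ileum, SLC28A2 takes up nucleosides and SI encodes sucrase-isomaltase, an enzyme of the weaned gut. All 5 were highest in FABP6-high cells of day 7. CUBN itself was at 2.28 in that profile, beside 0.181 in FABP6-low cells of day 1. The r values were not recomputed without that profile. With CUBN, AMN had an r of 0.608 and DAB2 of 0.493.

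Against myeloid cells as the rule defines them, epithelial levels of all 9 genes were higher on day 0, but 1 of the 9, LGMN, passed 2-fold (log2 1.07, 0.99 to 1.14), beside 4.33% of 12551 genes, and none was 2-fold lower, beside 7.94%. On day 1 CUBN, AMN, DAB2, CTSD and LGMN passed, 5 of the 9, beside 13.8% of 12039 genes, and none was lower, beside 12.3%. On day 3 DAB2 was higher and CTSB, LGMN and LAMP2 were lower past 2-fold in epithelial than in myeloid cells, 1 and 3 of the 6 genes with enough counts, beside 11.95% and 20.1% of 6333 genes. The summed receptor complex had log2 ratios of 0.81 (0.76 to 0.86), 1.38 (1.33 to 1.42) and 3.06 (2.23 to 3.96) on days 0, 1 and 3, the last from 54 epithelial and 16 myeloid UMIs. The proteases stood at 0.77, 0.99 and −0.64 (−0.93 to −0.37) and the LAMP genes at 0.28, 0.39 and −0.46 (−0.78 to −0.14), so that both sums were higher in epithelial cells on days 0 and 1 and lower on day 3.

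Without the cells that met both rules the ratios of days 0, 1 and 3 were 1.51, 3.06 and 3.40 for the receptor complex, 0.82, 1.80 and −0.77 for the proteases and 0.45, 0.58 and −0.59 for the LAMP genes. On day 0, 5 of the 9 genes then passed 2-fold, beside 15.6% of 12315 genes, and on day 1 it was 8 of the 9, all but LAMP2, beside 29.7% of 11637 genes. None was lower past 2-fold on either day, beside 11.4% and 14.7%. In the myeloid cells of the rule EPCAM stood at 7.18 on day 0 and 3.21 on day 1, and without the shared cells at 3.38 and 0.645, beside 1.36 and 0.460 in lymphoid cells. The shared cells were left out by a rule that counts EPCAM, so its lower level without them is set in part by that rule. The part of epithelial RNA in the remaining myeloid values was not tested.

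**Figure D5:**
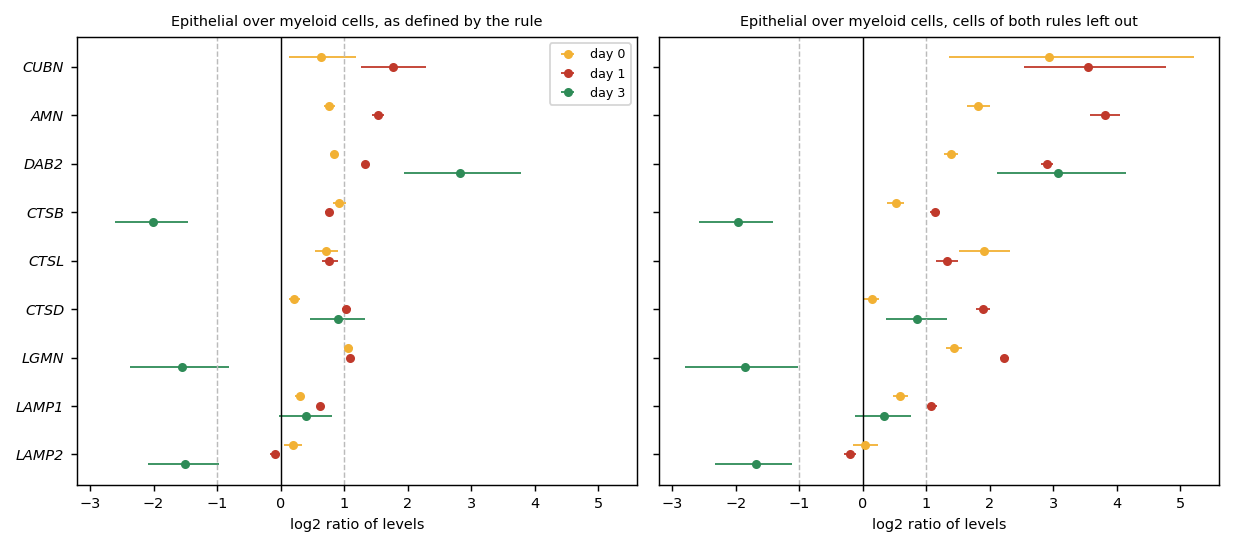
Log2 ratio of the level in epithelial over myeloid cells of the same library (horizontal axis) for each gene on days 0, 1 and 3, with exact 95% counting intervals, for the classes as defined (left) and without cells that met both rules (right); genes under 50 UMIs are not drawn and dashed lines mark 2-fold. Ratios of CUBN, AMN and DAB2 on days 0 and 1 move up on the right, and LAMP2 stays near 0 on those days.

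Myeloid cells with at least 5 UMIs of C1QA, C1QB and C1QC, genes of macrophages, numbered 101 on day 0 and 161 on day 1. Cells that met both rules were not left out of them. CTSD stood there at 4.40 (3.96 to 4.86) on day 0 and 1.89 (1.69 to 2.11) on day 1, and CTSB at 3.16 and 3.93. LGMN stood at 2.32 on day 0 and 5.16 on day 1. The values of the 2 days are given side by side and not read as a change with age.

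Among the uptake genes DAB2, which macrophages are known to express, stood at 3.00 and 1.88 in the C1Q-high cells, AMN at 0.245 and 0.0119, and CUBN at 0.0233 on day 0 and at 0 on day 1. Set against FABP6-low absorptive cells, 5 of the 9 genes were at least 2-fold lower in C1Q-high cells on day 0, beside 25.3% of 9892 genes, and 8 of the 9 on day 1, beside 33.5% of 9698 genes. None was 2-fold higher on day 0 or 1, beside 15.7% and 15.8%. CTSD on day 0 was the exception in direction, higher in the C1Q-high cells by 0.38 (0.22 to 0.53). The log2 ratio of DAB2 was −1.79 on day 0 and −3.09 on day 1. FABP6-low cells are the range highest in DAB2, CTSB, CTSD and LGMN. Against the whole epithelial class of day 0, CTSB (3.16 and 1.999) and CTSD (4.40 and 1.97) were higher in C1Q-high cells. LAMP2 stood at 0.874 (0.688 to 1.10) in C1Q-high cells and 0.699 in the class, and the other genes were lower. On day 1 LAMP2 alone was higher, at 1.82 (1.62 to 2.03) and 1.67.

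The 100 myeloid cells of day 14, in which EPCAM was at 0, gave a view without this epithelial marker. CTSD stood there at 5.50 (4.93 to 6.13), CTSB at 2.82, LAMP1 at 2.75, LGMN at 1.59, LAMP2 at 1.28, CTSL at 0.647 and DAB2 at 0.348. CUBN and AMN were at 0. The protease and membrane genes were thus present in myeloid cells and the cubilin receptor and its anchor were not detected. Myeloid cells were not alike across days, with C1QA at 13.6, 15.4, 0.317 and 1.61 and FCN1, a monocyte gene, at 0.253, 5.13, 0.0793 and 10.3 on days 0, 1, 3 and 14, so differences between days within them are not read as changes with age.

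Lymphoid cells, which had at least 3 UMIs of lymphoid markers and met none of the other rules, served as a class that should lack the uptake genes. On day 0 the lymphoid level was 14.6% of the epithelial level for EPCAM, and 15.0% for AMN, 21.6% for CUBN, 16.5% for DAB2, 15.7% for LGMN and 14.1% for CTSL, while it was 27.5% for CTSB, 30.0% for LAMP1, 50.4% for LAMP2 and 52.2% for CTSD. On day 1 EPCAM was at 5.65%, AMN at 5.43%, CUBN at 11.8%, DAB2 at 5.82%, LGMN at 5.48% and CTSL at 5.10%, and again CTSB, LAMP1, CTSD and LAMP2 were above, at 10.2% to 28.2%. AMN, DAB2, LGMN and CTSL thus had a lymphoid share near that of EPCAM on both days, and CTSB, LAMP1, LAMP2 and CTSD had more. EPCAM is itself a gene of the epithelial rule, and lymphoid cells were drawn from cells that did not meet it. Its share is therefore set in part by the rule and is not a free measure of epithelial RNA in lymphoid cells. The lymphoid CUBN level of day 0 rests on 26 UMIs. On days 3 and 7 EPCAM was at 0.367% and 0.476%, while DAB2 was at 19.7% and 1.55% and LGMN at 58.8% and 3.66%, so these 2 no longer kept to the share of EPCAM. On day 21, with 1 epithelial cell, lymphoid LAMP2 was at 0.444, CTSB at 0.308 and LGMN at 0.171, and DAB2 at 0.0028. LGMN in lymphoid cells was at 0.175 on day 14, when EPCAM there was at 0.0148.

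Lymphoid DAB2 went from 0.831 on day 0 to 0.588 on day 1 while the epithelial level went from 5.04 to 10.1. Lymphoid LGMN went from 0.617 to 0.674 while the epithelial level went from 3.93 to 12.3. Over the same days lymphoid EPCAM went from 1.36 to 0.460. In barcodes of at most 100 UMIs DAB2 went from 2.34 to 4.56 and LGMN from 1.88 to 3.80, while EPCAM went from 3.75 to 2.68. The part of free RNA in the epithelial values was not tested. Lymphoid LAMP2 was at 0.352 on day 0 and 0.470 on day 1, higher on day 1 as in epithelial cells. With the lymphoid level taken off, a step added after the data had been seen, the log2 ratios of day 1 were 0.98 for the receptor complex, 1.72 for the proteases and 1.15 for the LAMP genes.

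By cells, thinned to 1000 UMIs each to remove depth, 23.4% of epithelial cells had a UMI of DAB2 on day 0 and 44.4% on day 1, and 18.6% and 45.3% had one of LGMN. Unthinned these shares were 56.3% and 75.0% for DAB2 and 55.5% and 75.0% for LGMN, at a median depth of 9776 and 16276.5 UMIs. In lymphoid cells, with a median of 3449.5 and 3819.5 UMIs, the thinned shares were 2.79% and 2.66% for DAB2 and 2.11% and 2.54% for LGMN. CUBN was found in 0.693% of thinned epithelial cells on day 0, 1.30% on day 1 and 4.69% (2.17 to 8.71, exact Clopper-Pearson) on day 7, beside 0.166%, 0.0352% and 0.0561% of lymphoid cells.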

How the data were processed

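The authors counted UMIs per gene and barcode with Cell Ranger 3.1.0, which aligns with STAR, against susScr11 (Sscrofa11.1), per the labels, and deposited raw counts of every barcode, without normalization. No cell annotation was used here. The labels name the third version of the 10x kit and the methods the second. All 20648 symbols matched the RefSeq table of that build. Depth is given with the results.

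The 9 genes, lists, marker sums and bounds were chosen with earlier results of these data known. Counts were summed over cells per class and day, and ratios of sums taken without a test. Named genes were the 9, the 3 of each list with the highest epithelial level, genes past 4-fold in the same direction between epithelial and myeloid cells on days 0, 1 and 3 (none), and the 5 most like CUBN and the summed proteases. Of the genes this rule names, 2 are not reported here. LRP2, LRPAP1, ATP6V0D1 and marker genes were added after their values were seen. Doublets were kept and no caller was run. An alternative left out cells with UMIs of other lineages. Ratios and intervals were checked on simulated counts. Python 3.11.15, numpy 2.4.6, scipy 1.17.1, pandas 2.3.3, R 4.3.3 and edgeR 4.0.16 (TMM factors) were used.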

Additional observations from a re-analysis of the deposited data

Results flagged for a closer look

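Between day 0 and day 1 the log2 ratio of AMN had opposite signs in epithelial and myeloid cells. The myeloid cells of the 2 days were not alike (C1QA and FCN1, above), so the myeloid ratio is not read as a change with age. Its log2 ratio was 0.29 (0.24 to 0.34) in epithelial cells and −0.48 (−0.60 to −0.36) in myeloid cells, a difference of 0.77 that was not tested, since there was 1 library per day. Without the cells that met both rules the myeloid ratio was −1.68 (−1.99 to −1.39). DAB2 and CTSD also had opposite signs in the 2 classes under that setting, with myeloid ratios of −0.54 (−0.68 to −0.40) and −0.69 (−0.84 to −0.54), where they were 0.52 and 0.25 with those cells. Myeloid EPCAM stood at 7.18 on day 0 and 3.21 on day 1 with those cells and at 3.38 and 0.645 without them, in UMIs per 10000. EPCAM is in the rule by which those cells were left out, so its lower level without them is set in part by that rule. The part of epithelial RNA in the AMN values was not tested.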

How the results depend on the processing

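The 9 sums of the receptor complex, the proteases and the LAMP genes and the count of hydrolases were recomputed under each alternative, 103 values in all. Of these 60 lay within the counting interval or within 1.5 times the count, and 43 lay outside it. No sum whose level differed at least 2-fold changed sign, and the 17 hydrolases became 16 to 20. Where a value moved, the cause was not tested. Values are log2 ratios in the order receptor complex, proteases, LAMP genes, and those not listed for a setting stayed within their interval. On day 1 over day 0 the mean over cells gave 0.95, 1.46 and 0.92, TMM factors 0.77, 1.35 and 0.80, the set without enteroendocrine and goblet cells 0.68, 1.31 and 0.77, and the level minus that of lymphoid cells 0.98, 1.72 and 1.15. A mitochondrial share below 25% gave 0.84 for the complex and 1.43 for the proteases, and leaving out cells of both rules 1.35 for the proteases. On day 7 over day 0 TMM factors gave 0.0083, 0.34 and 0.84, the set without enteroendocrine and goblet cells −0.0073, 0.35 and 0.91, and the level minus that of lymphoid cells 0.55, 1.01 and 1.55. The mean over cells gave 0.22 and 0.49 for the complex and the proteases, and a mitochondrial share below 25% gave 0.73 for the proteases. For epithelial over myeloid cells, where a value is the median of days 0, 1 and 3 (1.38, 0.77 and 0.28 with the classes as defined) although the proteases and LAMP genes change sign on day 3, leaving out cells of both rules gave 3.06, 0.82 and 0.45, the mean over cells 2.36, 0.59 and 0.17, and the set without enteroendocrine and goblet cells 1.42, 1.20 and 0.59. TMM factors gave 1.32 for the complex and 0.92 for the proteases. Myeloid cells with PTPRC and without stromal markers gave 2.36 for the complex and 0.38 for the LAMP genes. Mitochondrial UMIs left out of the denominator gave 1.45 for the complex. Day 3 had 6 C1Q-high myeloid cells, so the C1Q-high alternative rests on days 0 and 1 only. It gave 1.99 for the complex and 0.38 for the proteases. Of the proteases on day 0, CTSB and CTSD were higher in C1Q-high than in epithelial cells, and CTSL and LGMN were lower. The lymphoid, C1Q and FABP6 alternatives were chosen after the data had been seen.

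No paired analysis was possible because each age has 1 library, where ages were compared. Epithelial and myeloid cells were set against each other within a library, and the values of those 3 libraries are given with no test. Animals of an age cannot be separated, and the epithelial values of days 3 and 14 rest on 90 and 28 cells.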
